A study of Mus musculus with 22 samples.

Results

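The genes described here are the inhibitory receptors that mark exhausted T cells, together with Tox, a transcription factor of the exhausted state. They were chosen by name as 10 genes of the 17023 to which the deposited transcripts could be assigned: Pdcd1, Ctla4, Tigit, Lag3, Havcr2, Cd160, Cd244a, Entpd1, Cd200r1 and Tox. Of the 62492 transcripts in the count matrix 23 belong to them, and their counts were summed per gene. Inhibitory receptors sit in the membrane of lymphocytes and pass a braking signal inwards when a ligand on a neighbouring cell engages them. Brief expression follows normal activation, whereas T cells that meet their antigen for weeks, as in chronic infection or cancer, carry several of these receptors together, make fewer cytokines and depend on Tox. B cells and their malignant counterparts also transcribe some of these genes, so that in an unpurified tissue sample a receptor transcript may come from the tumour as well as from host T cells.

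The samples came from a murine leukemia cell line derived from an Eμ-TCL1 transgenic mouse, a model of chronic lymphocytic leukemia in which the TCL1 oncogene is driven in B cells. The line, TCL1-355 TKO, carries engineered lesions that include CDKN2A and CDKN2B in every group. NFKBIE-ko cells had the gene for the NF-κB inhibitor IκBε disrupted with CRISPR/Cas9, and NFKBIE-wt cells were the mock-transfected counterpart. Among the study's questions was how leukemia cells lacking IκBε alter the tissue in which they grow, T cells included. Both kinds of cells were propagated separately for 21 days in C57BL/6 mice. They were then transplanted intraperitoneally into 5 young adult C57BL/6 mice per genotype, all with an intact immune system. Cells were taken 10 days later out of the spleen and the peritoneal cavity (PC). The 6 groups were NFKBIE-wt spleen, NFKBIE-ko spleen, NFKBIE-wt PC and NFKBIE-ko PC with 4 libraries each, and NFKBIE-wt and NFKBIE-ko cells kept 2 weeks in vitro with 3 libraries each, the cultured cells having been isolated from spleens of 3 mice. The tissue samples were not purified, so they hold leukemia cells and host cells. Genotype and separate propagation cannot be told apart, because each genotype was propagated as its own population.

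Total counts ranged from 24036763 to 26581304 per library. Levels are given as CPM, each library's counts scaled to a common total after TMM normalization, as mean ± SD. Nfkbie itself ranged from 71.0 to 124 CPM in NFKBIE-wt spleen and from 54.0 to 120 CPM in NFKBIE-ko spleen. In the PC it was lower in NFKBIE-ko without overlap, at 66.9 to 90.7 CPM in NFKBIE-wt and 46.75 to 64.4 CPM in NFKBIE-ko. In vitro NFKBIE-wt had 115, 141 and 54.1 CPM in replicates 1 to 3, and NFKBIE-ko 47.85 to 59.7 CPM. A frameshift need not lower a transcript, so this level does not check the edit. B-cell genes were high in all 22 libraries, with summed levels of 10 markers from 6351 to 11650 CPM. Transcripts of host cells set 3 NFKBIE-wt libraries apart. The library labelled NFKBIE-wt spleen replicate 4 held 1 count of Trbc2, 1 of Thy1, 2 of Cd8a and 0 of the macrophage gene C1qa, although the other 3 NFKBIE-wt spleens held 13 to 82 counts of each T-cell gene. NFKBIE-wt in vitro replicate 3, as labelled, held 104 counts of Trbc2, 91 of Thy1, 67 of Cd8a and 169 of C1qa. The cultured cells came from spleens, and whether host cells had been removed is not given in the sources used here. NFKBIE-wt in vitro replicate 1 stood in between, with 18 counts of Trbc2, 80 of Thy1, 8 of Cd8a and 2 of C1qa. In the other 4 cultures, NFKBIE-wt replicate 2 and NFKBIE-ko replicates 1 to 3, Trbc1, Trbc2, Cd8a and C1qa were at 0 counts. The T-cell gene Zap70 was at 0.463 CPM in NFKBIE-wt spleen replicate 4 and at 0.5335 to 1.23 CPM in those 4 cultures. It was at 18.3 CPM in NFKBIE-wt in vitro replicate 3 and at 18.8 to 39.05 CPM in the other NFKBIE-wt spleens. In the same order Cd200r1 was at 22.2, 16.2 to 25.7, 2.68 and 1.59 to 4.10 CPM. Ctla4 was at 4.29, 0.538 to 0.698, 30.4 and 29.7 to 63.5 CPM. Whether this spleen library and this culture were exchanged was not tested. No library was reassigned, and results that rest on the 3 libraries set apart are given with and without them, a choice made after seeing the data.

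**Figure D1:**
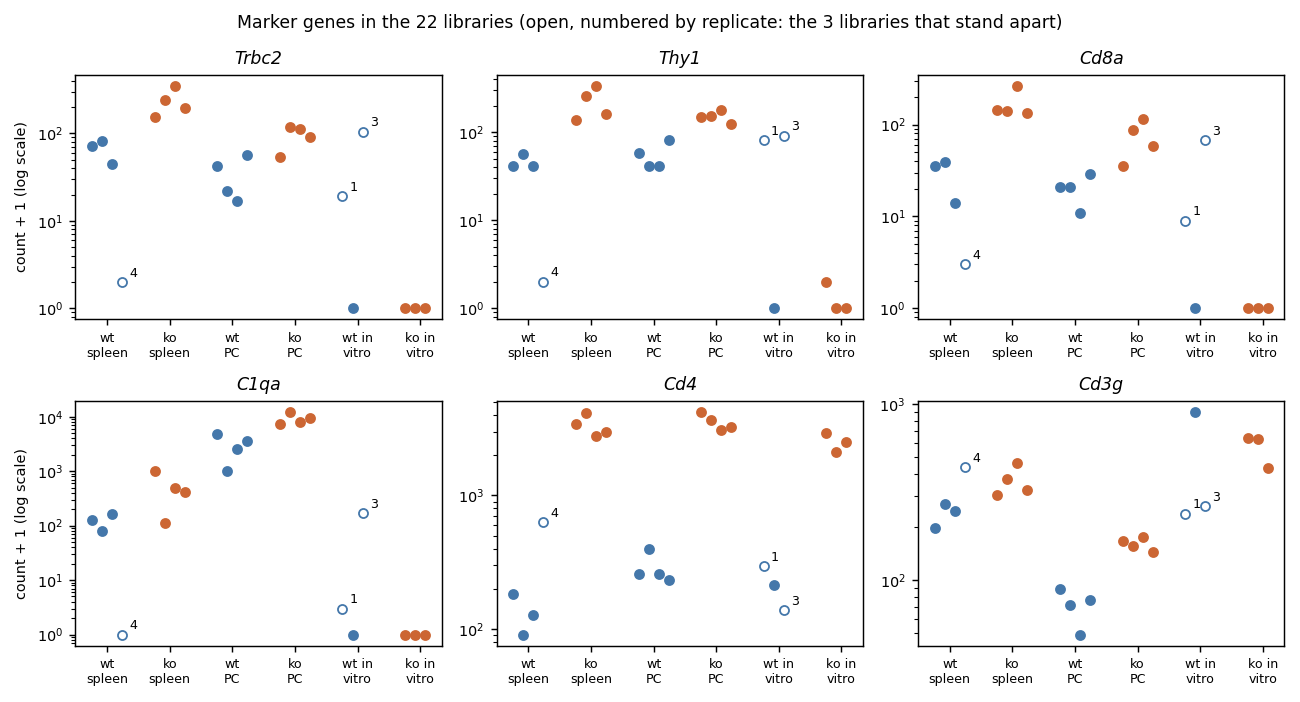
Counts of 6 marker genes plus 1 (log axis) in each of the 22 libraries, by group, with NFKBIE-wt in blue, NFKBIE-ko in orange and the 3 libraries that stood apart as open circles numbered by replicate. Trbc2, Thy1, Cd8a and C1qa are near the bottom in NFKBIE-wt spleen replicate 4 and well above it in NFKBIE-wt in vitro replicate 3, whereas Cd4 separates the genotypes in all groups.

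The start regions of 7 of the 10 genes were found among RefSeq promoters (GRCm38.p6), and 3, Lag3, Tox and Cd200r1, were not matched. Those of the 3 receptors that passed the test between genotypes in the PC are printed below, each as bases 250 to 51 before the transcription start on the strand of the gene. Pdcd1 lies at chr1:94052604-94052803 on the minus strand, Ctla4 at chr1:60908775-60908974 on the plus strand and Cd244a at chr1:171558943-171559142 on the plus strand. Capitals mark a match to the AP-1 motif TGANTCA or to a short NF-κB motif, GGG and CC with any 5 bases between them, on either strand.
Pdcd1: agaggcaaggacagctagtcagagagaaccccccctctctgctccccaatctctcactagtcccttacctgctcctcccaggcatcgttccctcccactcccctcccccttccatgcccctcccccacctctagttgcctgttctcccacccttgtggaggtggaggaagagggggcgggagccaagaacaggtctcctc
Ctla4: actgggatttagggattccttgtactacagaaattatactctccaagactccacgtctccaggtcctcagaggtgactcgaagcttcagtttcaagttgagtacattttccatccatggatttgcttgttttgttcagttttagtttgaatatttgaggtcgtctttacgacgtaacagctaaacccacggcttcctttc
Cd244a: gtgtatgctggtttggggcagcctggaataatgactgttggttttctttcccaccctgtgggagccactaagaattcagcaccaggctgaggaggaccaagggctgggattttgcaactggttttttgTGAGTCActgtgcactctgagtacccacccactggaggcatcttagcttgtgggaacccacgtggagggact
Cd244a held 1 AP-1 match in this window, and Pdcd1 and Ctla4 held no match to either motif. Over 32851 promoter windows of the same length, 5.57% held TGANTCA and 37.2% held the NF-κB pattern, so the latter is common by its letters alone. Havcr2 also held 1 AP-1 match and Cd160 1 NF-κB match.

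The first comparison asked which of these genes leukemia cells transcribe without a host. With detection set at 0.5 CPM in every library of a group, 6 of 10 genes were detected in NFKBIE-ko cultures: Pdcd1, Lag3, Ctla4, Cd244a, Entpd1 and Cd200r1. NFKBIE-wt cultures added Tigit, making 7, and the 4 cultures without host transcripts again gave 6. In those 4 cultures Entpd1, which encodes the ectonucleotidase CD39, had 886 to 1003 counts, and Cd200r1, the receptor of CD200, had 394 to 669. Pdcd1, which encodes PD-1, followed with 125 to 402 counts, Lag3 with 73 to 100 and Cd244a with 45 to 55. Ctla4 sat just above the detection level at 14 to 17 counts (0.538 to 0.698 CPM), and Tigit spanned it at 3 to 17 counts (0.115 to 0.653 CPM). Havcr2 had 0 to 7 counts, Cd160 0 to 1 and Tox 0 in all 4, where a count of 0 allows up to 3 counts in a library. At 1 CPM the same 4 cultures kept 5 genes, without Ctla4. Some T-cell genes were present there too: Cd3g had 432 to 897 counts and Trac 66 to 116, whereas Cd3e had 0 to 2.

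In tissue, 8 of the 10 genes were detected in every NFKBIE-ko spleen and 9 in every NFKBIE-ko PC sample. NFKBIE-wt spleen and NFKBIE-wt PC each gave 6, the same 6 as the 4 cultures without host transcripts. Without replicate 4, NFKBIE-wt spleen gave 9, with Tigit, Havcr2 and Tox added. Havcr2 and Tox were below 0.5 CPM in all 4 cultures without host transcripts and above it in all 8 NFKBIE-ko tissue samples. Cd160 reached 0.5 CPM in 3 of 4 NFKBIE-ko spleens and in no PC sample. Cd200r1 was the gene that NFKBIE-ko spleen lost from the list of the cultures, as replicate 2 fell to 0.471 CPM. In bulk samples such as these, fewer cells of a type and less RNA per cell cannot be told apart.

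**Figure D2:**
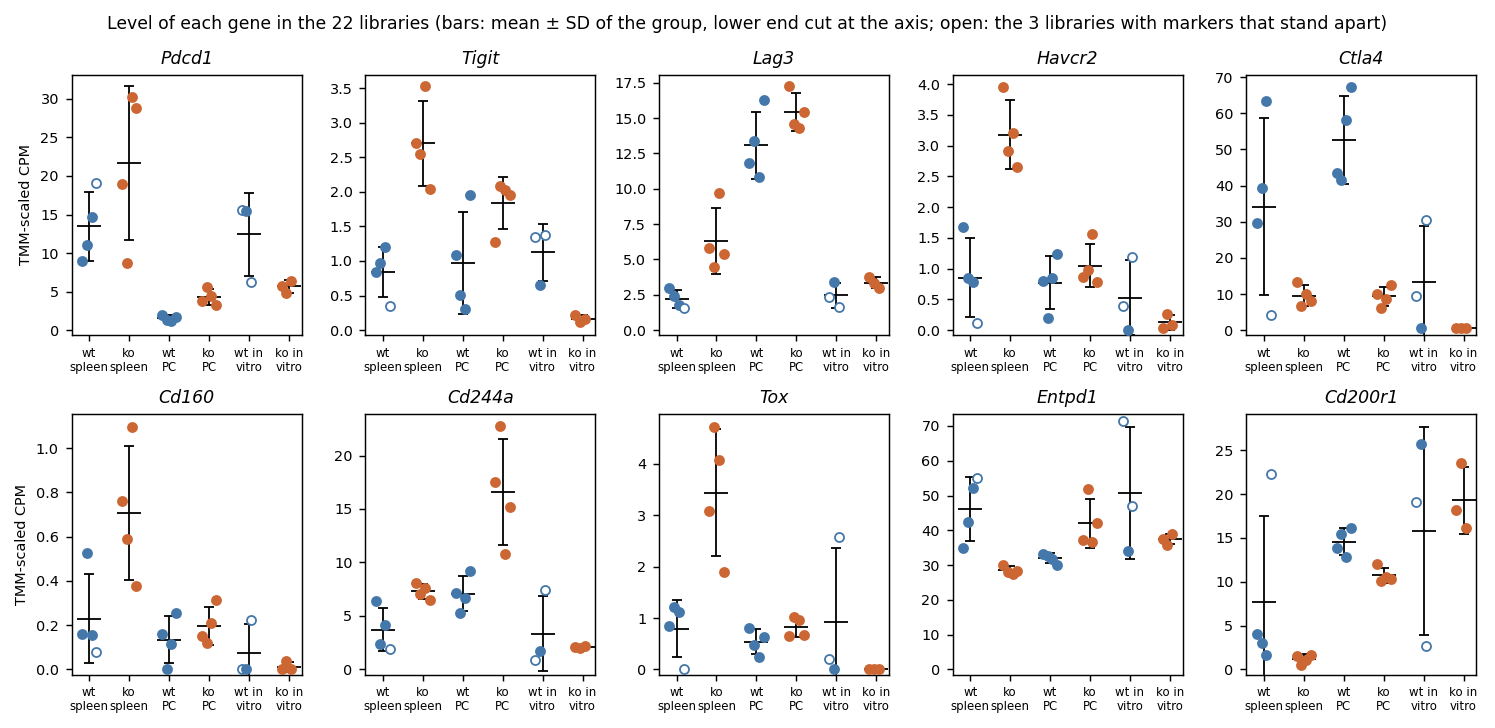
Level of each of the 10 genes (TMM-scaled CPM, linear axes that differ between panels) in the 22 libraries by group, with bars for the mean ± SD and open circles for the 3 libraries that stood apart. Tigit, Havcr2, Cd160 and Tox are highest in NFKBIE-ko spleen, Ctla4 in NFKBIE-wt tissue, Cd200r1 in PC and culture more than in NFKBIE-ko spleen, and Entpd1 is at 27.5 CPM or more in every library.

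Each compartment had its own genotype comparison, an edgeR quasi-likelihood fit of all genes, in which a call needed an adjusted p under 0.05 together with a log2 difference of more than 1. In the spleen all 10 genes were tested, and 2 were called higher in NFKBIE-ko, Tigit and Lag3, against 1.33% of all genes called higher and 1.55% called lower. None was called lower. At an unadjusted p below 0.05 stood 9 of the 10, beside 22.7% of all genes. These 2 calls sat at the threshold: leaving out any of NFKBIE-wt replicates 1, 2 and 3 or NFKBIE-ko replicates 1, 3 and 4 left 0 calls, and leaving out NFKBIE-ko replicate 2 left Lag3 alone. With NFKBIE-wt spleen replicate 4 left out, 4 genes were called higher (Tigit, Lag3, Havcr2 and Tox) and Ctla4 lower, against 2.86% and 3.26% of all genes. In the PC 9 genes passed the filter on low counts, all but Cd160, and Pdcd1 and Cd244a were called higher and Ctla4 lower, against 9.85% and 3.50% of all genes. In vitro 7 genes passed the filter and 0 were called by edgeR, 3 had an unadjusted p below 0.05 beside 9.32% of all genes, and 0.0336% of all genes were called higher and 0% lower; DESeq2 called 2 lower, Tigit and Ctla4. Against NFKBIE-wt in vitro replicate 2 alone, assumed to vary as the NFKBIE-ko cultures do, Pdcd1 was called lower, with 1.72% of all genes higher and 0.691% lower.

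Transcripts of T-cell, myeloid and natural killer cell genes moved with genotype in the same samples, though not all in the same direction. The summed level of 19 T-cell genes was 146 to 273 CPM in NFKBIE-wt spleen and 265 to 379 CPM in NFKBIE-ko spleen, and 268 to 347 CPM against 416 to 480 CPM in the PC. The same genes summed to 195 to 287 CPM in the 4 cultures without host transcripts, where 7 or 8 of the 19 were at 0, so the sum holds leukemia transcripts as well as those of host cells. Trbc2, at 0 in those cultures, was at 9.09 CPM in NFKBIE-ko spleen against 1.97 CPM in NFKBIE-wt spleen (edgeR adjusted p = 0.147), and at 3.71 against 1.37 CPM in the PC (edgeR adjusted p = 0.0215). In the PC 11 of the 18 T-cell genes tested were called higher and 1 lower, beside the 9.85% and 3.50% of all genes. Trac and Zap70 went the other way there. Trac was at 11.9 to 15.6 CPM in NFKBIE-wt PC and 5.89 to 7.795 CPM in NFKBIE-ko PC. Zap70 was at 17.7 to 28.2 CPM and 3.26 to 6.28 CPM. Both overlapped between genotypes in the spleen. A list of 13 myeloid genes summed to 622 to 1813 CPM in NFKBIE-wt PC and 3905 to 5728 CPM in NFKBIE-ko PC, with 10 of 13 called higher. Natural killer cell genes summed to 1.78 to 6.36 CPM in NFKBIE-wt spleen and 8.94 to 23.0 CPM in NFKBIE-ko spleen. No marker of the T-cell list was at 0 in a whole tissue group. The part of these cells in the receptor results was not tested.

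**Figure D3:**
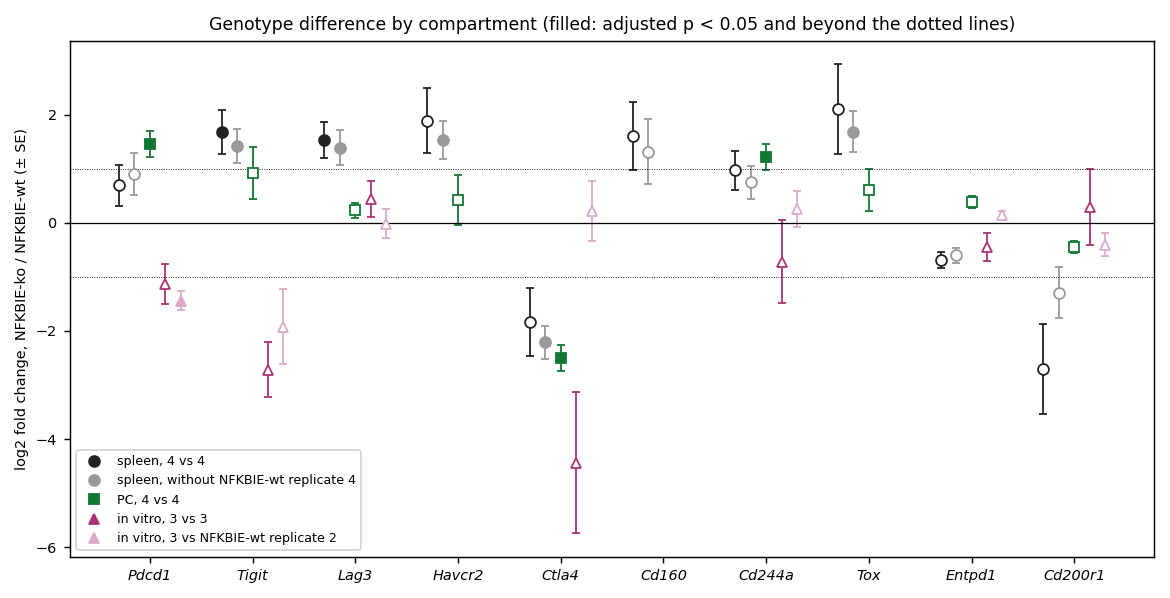
Log2 fold change ± SE of NFKBIE-ko against NFKBIE-wt for each gene (linear axis) in spleen, in PC and in vitro, with paler symbols for the fits without the libraries that stood apart, and filled symbols for calls. Filled points lie above the line for Tigit, Lag3, Havcr2 and Tox in the spleen and for Pdcd1 and Cd244a in the PC, and below it for Ctla4 in spleen and PC and for Pdcd1 in vitro in the paler fit.

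Pdcd1 encodes PD-1, the receptor of PD-L1 and PD-L2. In the spleen it stood at 8.91, 11.1, 14.7 and 19.1 CPM in NFKBIE-wt and at 19.0, 8.75, 30.2 and 28.8 CPM in NFKBIE-ko, so the groups overlapped and the log2 difference of 0.69 ± 0.38 (SE) did not pass (edgeR adjusted p = 0.314). In the PC it was lower in both genotypes, at 2.01, 1.30, 1.17 and 1.70 CPM in NFKBIE-wt and 3.81, 5.62, 4.42 and 3.29 CPM in NFKBIE-ko. All NFKBIE-ko PC samples were above all NFKBIE-wt PC samples, a log2 difference of 1.46 ± 0.25 (edgeR adjusted p = 9.06e-04). In vitro the order was the other way: 15.6, 15.4 and 6.22 CPM in NFKBIE-wt, with the highest value in replicate 1 and the lowest in replicate 3, both of which held host transcripts, against 5.79, 4.80 and 6.40 CPM in NFKBIE-ko. Against NFKBIE-wt replicate 2 alone the difference was -1.44 ± 0.18 (edgeR adjusted p = 0.00499). The PC effect and the in vitro effect differed by 2.61 on the log2 scale (edgeR adjusted p = 0.0185).

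Ctla4 encodes CTLA-4, which competes with CD28 for CD80 and CD86 and is constitutive on regulatory T cells. It was the member called lower in NFKBIE-ko tissue. NFKBIE-ko spleens had 13.5, 6.75, 9.87 and 8.14 CPM. NFKBIE-wt spleens had 29.7, 39.2, 63.5 and 4.29 CPM, the last in the replicate with few host transcripts. With that replicate the difference of -1.83 ± 0.64 did not pass (edgeR adjusted p = 0.133), and without it the difference was -2.21 ± 0.30 (edgeR adjusted p = 0.00308). PC samples did not overlap, with 43.5, 41.7, 58.1 and 67.3 CPM in NFKBIE-wt and 9.95, 6.21, 8.60 and 12.6 CPM in NFKBIE-ko, a difference of -2.50 ± 0.24 (edgeR adjusted p = 5.83e-05). Cultures ran from 0.538 CPM in NFKBIE-wt replicate 2 to 9.32 and 30.4 CPM in replicates 1 and 3, and from 0.560 to 0.698 CPM in NFKBIE-ko. Il2ra, the interleukin-2 receptor alpha chain of regulatory and activated T cells, moved alongside: 59.5 to 91.5 CPM in NFKBIE-wt PC, 13.6 to 18.4 CPM in NFKBIE-ko PC. Foxp3, which defines regulatory T cells, was at 0 to 0.158 CPM in NFKBIE-wt PC and at 0.0843 to 0.188 CPM in NFKBIE-ko PC. Spleen means of Foxp3 were 0.463 CPM (NFKBIE-wt) and 0.811 CPM (NFKBIE-ko), which did not pass (edgeR adjusted p = 0.546). Ikzf2, also listed for regulatory T cells, rose from 0.669 to 1.35 CPM in the spleen (edgeR adjusted p = 0.514, not passed). Its PC means were 0.211 CPM (NFKBIE-wt) and 0.580 CPM (NFKBIE-ko). Ikzf4, of the same list, went from 0.140 to 0.164 CPM in the spleen and from 0.353 to 0.257 CPM in the PC. Il2ra was also at 40.5 CPM in NFKBIE-wt in vitro replicate 1, which had 2 counts of C1qa.

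Tigit encodes a receptor of CD155 that competes with CD226. It stood at 0.835, 0.972, 1.20 and 0.347 CPM in NFKBIE-wt spleen and at 2.70, 2.55, 3.52 and 2.04 CPM in NFKBIE-ko spleen. The ranges did not overlap, and the difference was 1.69 ± 0.41 (edgeR adjusted p = 0.0499), or 1.42 ± 0.31 without NFKBIE-wt replicate 4 (edgeR adjusted p = 0.0216). In the PC the values were 1.08, 0.513, 0.311 and 1.96 CPM in NFKBIE-wt and 1.28, 2.08, 2.02 and 1.96 CPM in NFKBIE-ko. NFKBIE-wt replicate 4 lay among the NFKBIE-ko samples there, and the difference of 0.92 ± 0.48 did not pass (edgeR adjusted p = 0.152). Without that sample the difference was 1.51 and passed. In culture Tigit was lower in all 3 NFKBIE-ko libraries, at 0.224, 0.115 and 0.164 CPM, than in the NFKBIE-wt libraries, at 1.34, 0.653 and 1.38 CPM, without passing the test (edgeR adjusted p = 0.344).

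Lag3 encodes a CD4-related receptor of MHC class II. Spleens had 2.98, 2.43, 1.79 and 1.54 CPM in NFKBIE-wt and 5.78, 4.43, 9.71 and 5.38 CPM in NFKBIE-ko. NFKBIE-ko was higher in every sample, by 1.53 ± 0.33 (edgeR adjusted p = 0.0345). In the PC Lag3 was high in both genotypes, at 11.8, 13.3, 10.8 and 16.3 CPM in NFKBIE-wt and 17.3, 14.6, 14.3 and 15.5 CPM in NFKBIE-ko, with overlapping ranges (edgeR adjusted p = 0.188). Cultures held 59, 89 and 44 counts in NFKBIE-wt and 100, 87 and 73 counts in NFKBIE-ko, against 40 to 75 counts in NFKBIE-wt spleen, so NFKBIE-wt spleens overlapped with the cultures. The genotype effect was larger in the spleen than in the PC by 1.29 ± 0.36 (edgeR adjusted p = 0.0432). The number of genes called in that comparison changed when any of 16 of the 22 libraries was left out, and Lag3 was lost in each of those fits. Without NFKBIE-wt spleen replicate 4 the Entpd1 call was lost too, so that 0 were left.

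Lag3 has the gene Cd4 as a neighbour on the same strand of chromosome 6, with 6562 bases between them, and Cd4 separated the genotypes in all compartments. Cd4 ran from 3.65 to 24.4 CPM over the 11 NFKBIE-wt libraries and from 80.6 to 161 CPM over the 11 NFKBIE-ko libraries. The highest NFKBIE-wt value was in spleen replicate 4, the library with few host transcripts. NFKBIE-ko cultures stood at 110, 80.6 and 103 CPM with Cd8a at 0. The log2 difference was 3.68 ± 0.58 in the spleen (edgeR adjusted p = 0.0124) and 3.60 ± 0.15 in the PC (edgeR adjusted p = 4.44e-07), and in vitro 3.55 ± 0.31 did not pass (edgeR adjusted p = 0.0514). Ptms, the neighbour on the other side at 1256 bases, was higher in NFKBIE-ko PC by 1.32 ± 0.07 (edgeR adjusted p = 9.78e-07), and its spleen difference of 1.00 did not pass (edgeR adjusted p = 0.0521).

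Havcr2 encodes TIM-3, a receptor of galectin-9. Its values were 1.67, 0.851, 0.776 and 0.116 CPM in NFKBIE-wt spleen and 3.96, 2.90, 3.21 and 2.65 CPM in NFKBIE-ko spleen, without overlap. The difference of 1.90 ± 0.60 did not pass with all libraries (edgeR adjusted p = 0.107), and it was 1.53 ± 0.35 without NFKBIE-wt replicate 4 (edgeR adjusted p = 0.0261). PC samples ranged from 0.197 to 1.23 CPM in NFKBIE-wt and from 0.783 to 1.56 CPM in NFKBIE-ko and overlapped. The counts were split over 2 coding transcripts. ENSMUST00000020668 held all Havcr2 counts of NFKBIE-ko tissue, 70 to 104 in the spleen and 20 to 37 in the PC, and ENSMUST00000109229 held the 0 to 7 counts of the 4 cultures without host transcripts. The latter also held all Havcr2 counts of NFKBIE-wt spleen replicates 2 (21 counts) and 4 (3 counts) and of NFKBIE-wt PC replicates 1 (20 counts) and 2 (5 counts), so the assignment did not separate tissue from culture.

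Cd160 encodes a receptor of HVEM and was the lowest of the receptors. NFKBIE-ko spleens had 20, 15, 28 and 10 counts, NFKBIE-wt spleens 4, 13, 4 and 2, and no PC sample more than 8. The spleen groups overlapped in counts between 10 and 13 (edgeR adjusted p = 0.174).

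Cd244a encodes 2B4, the receptor of CD48, found on natural killer cells, macrophages and CD8+ T cells. PC samples did not overlap, with 7.15, 5.29, 6.65 and 9.19 CPM in NFKBIE-wt and 17.5, 22.8, 10.8 and 15.2 CPM in NFKBIE-ko, a difference of 1.22 ± 0.23 (edgeR adjusted p = 0.00221). In the spleen NFKBIE-wt had 6.40, 2.39, 4.19 and 1.93 CPM and NFKBIE-ko 8.06, 7.03, 7.64 and 6.47 CPM, and the difference of 0.97 ± 0.37 did not pass (edgeR adjusted p = 0.159). The gene overlaps Ly9 on the opposite strand by 18806 bases, and its transcripts behaved unequally. The coding transcript ENSMUST00000004829 had 4 to 11 counts in the 4 cultures without host transcripts, 58 to 146 in NFKBIE-ko spleen and 222 to 537 in NFKBIE-ko PC. A transcript annotated for nonsense-mediated decay, ENSMUST00000194797, had 40 to 48 counts in those cultures and 31 to 50 in NFKBIE-ko PC. Most Cd244a counts of those cultures were thus assigned to the second transcript. Whether the quantification used strand is not given in the sources used here. The overlap is of whole gene spans, and shared exon sequence was not examined. Whether reads of Ly9 were assigned to that transcript was not tested.

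Tox, the transcription factor needed to keep exhausted T cells, was at 0.835, 1.22, 1.13 and 0 CPM in NFKBIE-wt spleen and at 3.08, 4.71, 4.07 and 1.89 CPM in NFKBIE-ko spleen. Every NFKBIE-ko spleen was above every NFKBIE-wt spleen. The difference of 2.11 ± 0.83 did not pass with all libraries (edgeR adjusted p = 0.175) and was 1.69 ± 0.37 without NFKBIE-wt replicate 4 (edgeR adjusted p = 0.0219). In the PC it was at 0.804, 0.474, 0.233 and 0.638 CPM in NFKBIE-wt and 0.641, 1.02, 0.969 and 0.665 CPM in NFKBIE-ko, which overlapped. Among cultures only those with host transcripts held any: 5 counts in NFKBIE-wt replicate 1 and 69 in replicate 3.

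Entpd1 and Cd200r1 were the members most abundant in culture. Entpd1 was at 34.9, 42.4, 52.1 and 54.9 CPM in NFKBIE-wt spleen and 30.1, 28.0, 27.5 and 28.3 CPM in NFKBIE-ko spleen, a difference of -0.69 ± 0.15 that passed on p (edgeR adjusted p = 0.0333) and not on size. In the PC the order turned, with 29.9 to 33.2 CPM in NFKBIE-wt and 36.7 to 52.0 CPM in NFKBIE-ko (0.39 ± 0.11, edgeR adjusted p = 0.0136, under the fold threshold). The effects in spleen and PC differed by -1.09 ± 0.25 (edgeR adjusted p = 0.0176), and by -0.97 ± 0.25 without the 2 libraries, then under the fold threshold. Cd200r1 had 103, 74, 41 and 576 counts in NFKBIE-wt spleen, the highest in the replicate with few host transcripts. NFKBIE-ko spleens had 40, 12, 28 and 43 counts (edgeR adjusted p = 0.100 between genotypes). PC samples had 12.8 to 16.1 CPM in NFKBIE-wt and 10.1 to 12.0 CPM in NFKBIE-ko, and cultures 19.1, 25.7 and 2.68 CPM in NFKBIE-wt and 18.2, 23.5 and 16.2 CPM in NFKBIE-ko. The low NFKBIE-wt culture was replicate 3, and replicate 1, which also held T-cell transcripts, stood at 19.1 CPM.

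Tissue was then compared with culture within each genotype, in a fit of all 22 libraries in which both contrasts share the cultures. In NFKBIE-ko spleen against culture, 7 of 10 genes were called higher and 1 lower, beside 8.21% of all genes higher and 5.13% lower. The higher ones with a fitted difference were Havcr2 at 4.57 ± 1.03, Tigit at 3.98 ± 0.60, Ctla4 at 3.93 ± 0.97, Pdcd1 at 1.94 ± 0.39 and Cd244a at 1.83 ± 0.52, and Cd200r1 was lower by -4.02 ± 0.75. The other 2 were near 0 in culture: Tox was at least 29.4-fold higher in the spleen against 3 counts per culture library, and Cd160 had a ratio of 54.3 with a 95% counting interval of 9.45 to 2175, from 1 count over the 3 cultures. In NFKBIE-ko PC against culture, 7 were called higher and 0 lower, beside 15.1% and 5.48% of all genes. They included Ctla4 at 3.90 ± 0.97, Tigit at 3.42 ± 0.59, Cd244a at 3.01 ± 0.55, Havcr2 at 2.98 ± 0.99 and Lag3 at 2.20 ± 0.29, with Tox at least 7.06-fold higher and a Cd160 ratio of 15.2 (95% counting interval 2.44 to 632). Cd160 passed the filter of this fit by its spleen samples alone, as no PC or culture library had more than 8 counts, and without it 6 genes were called higher in each contrast. Pdcd1 was not among the PC calls (-0.40 ± 0.38, edgeR adjusted p = 0.405). These intervals and floors cover counting error only. With 1 library left out in turn, 7 to 9 genes were called in the spleen contrast and 5 to 7 in the PC contrast. The spleen call of Cd244a was lost without NFKBIE-ko in vitro replicate 1 or 2, and the PC call of Havcr2 without replicate 1 or 3.

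For NFKBIE-wt the same comparisons rest on the libraries that stood apart. With all of them 0 of 10 genes were called in spleen against culture by edgeR, 0 had an unadjusted p below 0.05 beside 7.69% of all genes, and 0% of all genes were called in either direction. Without NFKBIE-wt spleen replicate 4 and in vitro replicate 3, 5 were called higher (Havcr2, Ctla4, Cd160, Cd244a and Tox) and Cd200r1 lower, beside 7.19% and 5.12% of all genes. In NFKBIE-wt PC against culture Lag3 was called higher, by 2.40 ± 0.30, and Pdcd1 lower, by -3.01 ± 0.39, beside 7.48% and 5.25% of all genes, and without the 2 libraries 5 were called higher and Pdcd1 lower, beside 12.4% and 5.72%.

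Spleen and PC were compared by level, since at 0.5 CPM the same 6 genes were detected in NFKBIE-wt samples of both. Some mice gave both a spleen and a PC library, which the fit does not take into account. In NFKBIE-wt, Pdcd1 was higher in the spleen by 3.12 ± 0.38 and Lag3 lower by -2.58 ± 0.27, the 2 calls beside 4.12% of all genes higher and 8.45% lower in the spleen. Without the 2 libraries Cd200r1 was also called lower, beside 4.71% and 9.68%. In NFKBIE-ko, Pdcd1 was higher in the spleen by 2.34 ± 0.36, and Lag3 (-1.29 ± 0.25), Cd244a (-1.18 ± 0.45) and Cd200r1 (-3.18 ± 0.71) were lower, beside 5.89% and 14.0%. Without the 2 libraries Havcr2, Cd160 and Tox were called higher in NFKBIE-ko spleen as well, making 7 calls beside 6.98% and 15.3%. Leaving out any of NFKBIE-ko spleen replicates 1 to 4 or NFKBIE-ko PC replicates 1 and 2 ended the Cd244a call.

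Whether a genotype effect differed between compartments was tested as an interaction. Between spleen and PC, Lag3 was called higher and Entpd1 lower, beside 0.428% of all genes higher and 1.43% lower (0.862% and 2.44% without the 2 libraries, when Lag3 alone was called). Between spleen and in vitro, Tigit was called, by 4.40 ± 0.77 (edgeR adjusted p = 0.0215), beside 0.188% and 0.123%, and without the 2 libraries Pdcd1 too, by 2.38 ± 0.49, beside 0.428% and 0.228%. The Tigit call was lost without NFKBIE-ko spleen replicate 3, without NFKBIE-wt in vitro replicate 3 or without any 1 of the NFKBIE-ko cultures. Between PC and in vitro, Pdcd1, Tigit (3.64 ± 0.76) and Tox were called, beside 2.87% and 0.254%, and Pdcd1 and Tigit without the 2 libraries, beside 2.94% and 0.492%. Leaving out NFKBIE-ko in vitro replicate 1 or 2 ended all 3 calls, and leaving out replicate 3 left Pdcd1. Tox is given without a fold because it was at 0 in all NFKBIE-ko cultures.

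T-cell transcripts differed between genotypes, so the receptors were also expressed per 100 counts of CD3 genes (Cd3d, Cd3e and Cd3g) of the same library. In the spleen, 9 members had a mean of at least 1 CPM, of which Tigit and Tox were higher in NFKBIE-ko without overlap and Entpd1 and Cd200r1 lower, beside 0.779% of all genes higher and 31.5% lower. Tigit was at 12.6 ± 2.36 per 100 CD3 counts in NFKBIE-ko spleen and 6.65 ± 3.32 in NFKBIE-wt spleen (8.19 ± 1.52 without replicate 4). Tox was at 15.9 ± 4.85 and 6.41 ± 4.30 (8.54 ± 0.612 without replicate 4). In the PC 0 of 7 members were higher without overlap and 4 were lower (Lag3, Ctla4, Entpd1 and Cd200r1), beside 1.89% and 80.0% of all genes, so the lower count is below the share of all genes. Cd3g makes up most of the CD3 sum and was present in cultures without host transcripts. Over Cd3e, Trbc1 and Trbc2, which were at or near 0 there, 0 members were higher in either compartment, 3 were lower in the spleen (Ctla4, Entpd1 and Cd200r1), beside 0.0876% and 85.6%, and 2 in the PC (Ctla4 and Cd200r1), beside 0.930% and 27.1%. On that scale Tigit stood at 17.3 ± 4.21 in NFKBIE-ko spleen and 20.5 ± 12.0 in NFKBIE-wt spleen without replicate 4, and Tox at 21.7 ± 6.80 and 21.0 ± 9.95. Over Trac, Trbc1 and Trbc2, Tigit, Havcr2 and Tox were higher in the spleen and Ctla4 lower, beside 1.18% and 3.95%, and Lag3 and Cd244a were higher as well without replicate 4. In the PC Pdcd1, Tigit, Cd244a and Entpd1 were higher on that scale and Ctla4 lower, beside 26.2% and 2.37%. Over the 19 T-cell genes Tigit, Lag3, Havcr2 and Tox were higher in the spleen and Entpd1 and Cd200r1 lower, beside 1.18% and 26.9%, and in the PC Pdcd1 was higher and Ctla4 and Cd200r1 lower, beside 8.09% and 58.0%. Tigit and Tox were thus higher in NFKBIE-ko spleen over 3 of the 4 denominators, each with genes present in cultures without host transcripts. Over Cd3e, Trbc1 and Trbc2, of which replicate 4 had only 4 counts, both overlapped with that replicate and also without it.

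**Figure D4:**
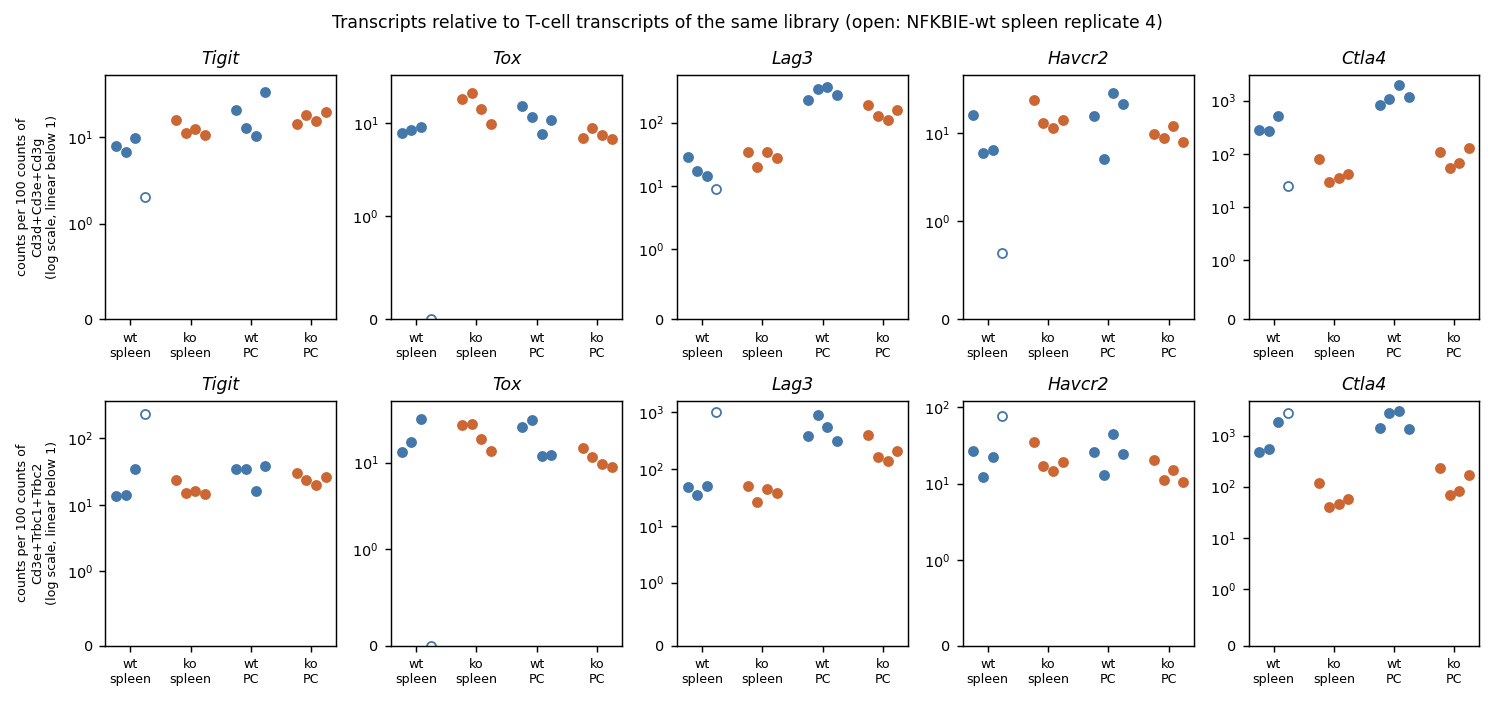
Counts of 5 genes per 100 counts of Cd3d, Cd3e and Cd3g (upper row) or of Cd3e, Trbc1 and Trbc2 (lower row) in each tissue library (log axis, linear below 1), with NFKBIE-wt in blue, NFKBIE-ko in orange and NFKBIE-wt spleen replicate 4 open. In the upper row Tigit and Tox of NFKBIE-ko spleen lie above NFKBIE-wt spleen, in the lower row they overlap with it, and Ctla4 of NFKBIE-ko PC lies below NFKBIE-wt PC in both rows.

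Between genes, levels were compared per transcript length, as TPM, counts divided by transcript length and scaled to a common total. In NFKBIE-ko spleen Pdcd1 led at 19.8 ± 8.76 TPM, followed by Entpd1 at 10.9 ± 1.53 and Ctla4 at 8.97 ± 2.79, whose ranges overlapped in turn. Tigit at 4.64 ± 0.923 TPM was separated from Havcr2 at 2.04 ± 0.387, and Cd160 was lowest at 0.503 ± 0.207. NFKBIE-wt PC was led by Ctla4 at 46.5 ± 9.57 TPM, above and without overlap with Cd200r1 at 12.9 ± 1.24. In NFKBIE-ko PC Entpd1 at 16.7 ± 2.22 and Lag3 at 13.8 ± 2.03 TPM led with overlapping ranges. NFKBIE-ko cultures were led by Cd200r1 at 18.9 ± 3.42 and Entpd1 at 15.1 ± 1.18 TPM, which overlapped, with Pdcd1 next at 5.46 ± 0.862 TPM, without overlap.

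Ligands of the receptors were described from a list of 15 genes. In NFKBIE-ko spleen Cd274, which encodes PD-L1, was higher (25.6 against 10.7 CPM, log2 difference 1.26 ± 0.25, edgeR adjusted p = 0.0257) and Cd200, the ligand of Cd200r1, lower (16.2 against 38.7 CPM, -1.25 ± 0.21, edgeR adjusted p = 0.0149). The other 10 of 12 tested were not called, and 1.33% of all genes were called higher in the spleen and 1.55% lower. In the PC 6 of 13 were called higher and 0 lower, beside 9.85% and 3.50% of all genes, with a median log2 difference of 0.75 beside -0.01 for all genes. The largest were Pdcd1lg2, the second PD-1 ligand, at 24.3 against 3.37 CPM (2.84 ± 0.14, edgeR adjusted p = 6.11e-07), Nectin2, a ligand of the TIGIT family, at 3.38 against 0.937 CPM (1.83 ± 0.28, edgeR adjusted p = 5.49e-04), and Cd274 at 88.2 against 27.5 CPM (1.68 ± 0.20, edgeR adjusted p = 2.50e-04). These genes are also transcribed by myeloid cells, whose markers differed as given above.

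Related inhibitory and costimulatory receptors followed with 2 of 14 called higher in the spleen and 5 of 14 in the PC, none lower, beside 1.33% and 9.85% of all genes called higher. Lair1, a collagen receptor of many leukocytes, was at 4.98 against 0.763 CPM in the spleen (2.70 ± 0.62, edgeR adjusted p = 0.0419) and at 26.4 against 4.35 CPM in the PC (2.60 ± 0.31, edgeR adjusted p = 2.02e-04). Klrg1, found on effector T cells and natural killer cells, was at 0.945 against 0.158 CPM in the spleen (edgeR adjusted p = 0.0448), too few counts in NFKBIE-wt for a fold. At these levels it passed the filter on low counts mainly by its NFKBIE-ko samples. Lair1 was thus the only spleen call of this list with a fold. Cd28, the costimulatory receptor that CTLA-4 opposes, was higher in the PC (1.66 against 0.373 CPM), as was Cd226, the activating counterpart of TIGIT (1.01 against 0.234 CPM).

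Of the transcription factors, cytokines and cytotoxic genes of the exhaustion programme, 6 of 28 were called higher and 1 lower in the spleen, with a median log2 difference of 0.92 beside -0.0035 for all genes; without NFKBIE-wt replicate 4, 12 were called higher and 1 lower, beside 1.33% and 1.55% of all genes with that library and 2.86% and 3.26% without it. Gzmb, which encodes granzyme B, was at 28.9 against 2.17 CPM (3.74 ± 0.70, edgeR adjusted p = 0.0221), and Nkg7, a cytotoxic granule gene, at 9.32 against 1.38 CPM (2.76 ± 0.59, edgeR adjusted p = 0.0326). Sh2d1a, the adaptor SAP on which 2B4 signals, was at 1.19 against 0.0488 CPM, too few counts in NFKBIE-wt for a fold. It passed the filter on low counts by its NFKBIE-ko samples, so its place among the genes called higher carries no weight of its own. Prdm1, which encodes Blimp-1, was lower (20.7 against 84.5 CPM, -2.03 ± 0.38, edgeR adjusted p = 0.0221). Blimp-1 also drives plasma cells. Of the other plasma-cell markers listed, Jchain (-2.63 ± 0.36) and Sdc1 (-2.28 ± 0.29) were called lower in the spleen. Xbp1 (-0.99 ± 0.24) and Irf4 (0.11 ± 0.18) were not called. In the PC 6 of 25 were called higher, led by Gzmb (1.55 ± 0.39), Bhlhe40 (1.41 ± 0.14) and Prf1 (1.35 ± 0.32), and Id2 was lower (-1.06 ± 0.12, edgeR adjusted p = 8.77e-05). Beside them 9.85% of all genes were called higher in the PC and 3.50% lower. In vitro 0 genes of these 3 lists were called.

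Among 11788 genes with a mean of at least 1 CPM over the 16 tissue samples, the genes whose levels most resembled each member were listed by Pearson's r of log2(CPM + 0.5), as a description over samples that share compartments and genotypes. Tox was most like Eomes, a T-box factor of cytotoxic and exhausted lymphocytes (r = 0.931), and Trbc2, a T-cell receptor constant gene (r = 0.908). Tigit also had Trbc2 among its 3 nearest (r = 0.911), after Osbpl3 (r = 0.927), and Havcr2 had Cd3e (r = 0.914), after Itpk1 (r = 0.919). Ctla4 was nearest to Cr2, the complement receptor of B cells (r = 0.959), Pdcd1 to the mitochondrial carrier gene Slc25a10 (r = 0.978) and Lag3 to the myeloid receptor gene Cd300c2 (r = 0.965). Cd244a was nearest to Tgm2 and Irak3, both at r = 0.931, Cd160 to Aopep (r = 0.891), Entpd1 to Sh3bgrl2 (r = 0.888) and Cd200r1 to Pigw (r = 0.957). Without NFKBIE-wt spleen replicate 4, the nearest gene was the same for Pdcd1, Tigit and Havcr2 and another for the other 7. Tox was then nearest to Taco1 (r = 0.938), Pdia3 and Vps45, with Eomes and Trbc2 no longer among its 3 nearest, and Havcr2 had Tnfrsf4 and Nes after Itpk1, no longer Cd3e. Tigit kept Trbc2 (r = 0.895).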

How the data were processed

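RNA of 22 samples in 6 groups, with 3 or 4 separate mice or cultures in each, was sequenced as paired ends, with a read length that differs between the labels and the study's methods. Per the labels, the authors made the deposited estimated counts with Salmon 1.8 on GRCm39. They are expected counts per transcript, unnormalized, and 69.5% of the values are not whole. Transcripts were assigned to genes with the GENCODE mouse annotation, which left 0.619% of counts unmatched, summed per gene and rounded. Genes were tested with edgeR 4.0.16 in R 4.3.3 (filterByExpr, TMM scaling, robust glmQLFit, glmQLFTest), with Benjamini-Hochberg adjustment over all genes tested. Calls needed an adjusted p under 0.05 together with a log2 difference of more than 1. Genotypes were compared in 1 fit per compartment, and all other contrasts in a fit of all 22 samples. The scripts were tested on simulated data. Members were named always; from the lists of ligands, related receptors and exhaustion genes, up to 3 called genes per direction with the largest difference were named, with the 3 genes most like each member, neighbours within 10000 bases and Nfkbie. The genes and lists were chosen with earlier results of these data known. No 2 libraries of a group agreed within sampling noise. Some NFKBIE-ko descriptions open with the name of NFKBIE-wt cells, and titles and source names gave the groups. Alternatives were DESeq2 1.42.0, other size factors and filters, a test per transcript, the replicate number as a block and leaving out libraries.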

Additional observations from a re-analysis of the deposited data

Results flagged for a closer look

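Single samples that lay apart from their group were 2 of 40 sets of 4 tissue samples, and chance gives about 1 in 20. Tigit in NFKBIE-ko PC replicate 1 (1.28 CPM) lay below the other 3 samples, and Cd200r1 in the library labelled NFKBIE-wt spleen replicate 4 (22.2 CPM) lay above the other 3.

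A genotype effect differed between compartments, by the test of the difference itself, in 6 results, given on the log2 scale. Between spleen and PC these were Lag3 (1.29) and Entpd1 (-1.09). Between spleen and in vitro it was Tigit (4.40), and between PC and in vitro Pdcd1 (2.61), Tigit (3.64) and Tox, which has no fold because it was at 0 in all NFKBIE-ko cultures. The in vitro terms use NFKBIE-wt cultures of which 2 held T-cell transcripts, and their part in the differences was not tested.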

How the results depend on the processing

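Over the alternatives, results of single genes kept their direction and side of the threshold 964 times, genes called in neither fit included. A call was lost 61 times and gained 16 times, and the sign turned 7 times. With 1 library left out, the number of calls changed by over 1.5 times in 8 of 8 fits of the spleen genotype comparison. It did so in 16 of 22 fits for the genotype effect in spleen against PC and 9 of 22 for spleen against in vitro. In the spleen genotype comparison 2 genes were called, against 6 with DESeq2, 1 with no filter on low counts, 0 with the replicate number as a block, 0 in a test per transcript and 0 to 5 with 1 library left out. In vitro 0 were called, against 2 with DESeq2, 2 in the fit of all 22 samples and 1 with 3 libraries set aside, and 0 to 2 with 1 library left out (2 without NFKBIE-wt in vitro replicate 2). The cause was not tested. Setting aside 2 libraries, or 3, gave 6 and 5 calls in NFKBIE-wt spleen against culture (0 to 1 with 1 left out, 1 without either of the 2), 6 and 6 in NFKBIE-wt PC against culture (2 to 5, 5 without in vitro replicate 3), 7 and 7 in NFKBIE-ko spleen against PC, 1 and 1 for the genotype effect in spleen against PC, and 2 and 2 for spleen against in vitro. For spleen against PC that effect gave 1 call with no filter, 1 with the replicate block (Lag3 lost, edgeR adjusted p = 0.0722) and 0 to 2 with 1 library left out. For spleen against in vitro it gave 5 with DESeq2, 0 with the block and 0 to 3 with 1 left out (3 when replicate 2 of the NFKBIE-wt cultures was dropped, and 2 when replicate 1 of those cultures, replicate 4 of the NFKBIE-wt spleens or replicate 2 of the NFKBIE-ko spleens was), and for PC against in vitro 0 to 4. Same-numbered samples correlated between -0.274 and 0.0782 across genotypes, between -0.167 and 0.133 across NFKBIE-wt spleen and PC, and between -0.0254 and 0.137 across NFKBIE-ko spleen and PC, over 0.1 in 3 of 4 numbers of the last. The numbers were therefore not taken to pair the samples, and the block changed no other count of calls by over 1.5 times. With 5 recipient mice per genotype and 4 libraries per tissue, some mice must have given both a spleen and a PC library. Which libraries share a mouse is not given in the sources used here. The fits treat all libraries as independent, so tests that span spleen and PC do not account for shared mice. Per Cd3e, Trbc1 and Trbc2, 2 members differed in the PC without overlap. At 1 CPM, 4 genes were detected in NFKBIE-wt cultures. In vitro, setting aside 3 libraries turned the sign of Lag3 (-0.018), Ctla4 (0.22), Cd244a (0.26), Entpd1 (0.14) and Cd200r1 (-0.41), none past the threshold, and leaving out NFKBIE-wt in vitro replicate 3 turned Cd244a (from -1.17 to 0.65 over the libraries left out) and Cd200r1 (from -0.21 to 0.82). The PC call of Cd244a was lost in the fit of all samples, at a log2 difference of 1.23. Counts under 10 in Cd160, Tox and Havcr2 limit what the cultures and PC samples can show.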

Other observations

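NFKBIE-ko cultures held 80.6 to 110 CPM of Cd4 with Tox at 0 counts, and NFKBIE-wt replicate 2, also without host transcripts, held 8.18 CPM. Among T-cell genes, Cd3g was highest in NFKBIE-wt in vitro replicate 2, at 34.5 CPM, with Trbc1, Trbc2 and Cd8a at 0, whereas Zap70 was at 1.23 CPM there and at 18.3 CPM in NFKBIE-wt in vitro replicate 3.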
